A study of Arabidopsis thaliana with 35 samples.

Results

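The genes described here encode NLR immune receptors of *Arabidopsis*. They are the 150 of 37898 genes in the expression tables whose short description contains TIR-NBS, CC-NBS, NBS-LRR or NB-ARC and does not contain WRKY, a condition that removed 0 genes. The descriptions class 87 of them as TIR-NBS-LRR, 25 as CC-NBS-LRR, 13 as TIR-NBS and 25 as NB-ARC or NBS-LRR without a named first domain. Chromosomes 1 and 5 carry 50 and 53 of them, chromosomes 2, 3 and 4 carry 4, 15 and 28. Only the description chose the genes and no measured value did, and receptors described in other words, such as ZAR1 and ADR1-L1, are not among them.

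Transcripts were measured by RNA-seq in whole 12-day-old seedlings grown at 22 °C on sucrose medium under light-dark cycles of 12 h each, and moved for the last 1 h to 37 °C (heat) or 10 °C (cold), or kept at 22 °C. Collection was 1 h (ZT1) or 6 h (ZT6) after dawn, so that treatment began at ZT0 or ZT5. The genotypes were *cca1lhy* (the *cca1-1* and *lhy-20* alleles, which remove a pair of morning transcription factors of the circadian clock) with WT (Col-0) at ZT1, and *prr7prr9* (the *prr7-3* and *prr9-1* alleles, which remove a pair of daytime clock repressors) with WT (Col-0) at ZT6. The paper gives both mutants as being in the Col-0 background. Whether segments of another accession remain in either mutant was not tested. The 6 ZT1 groups hold 4 libraries each, except WT at 10 °C with 3, and the 6 ZT6 groups hold 2. The comparisons ask how 1 h of heat or cold changes the receptors' transcripts, whether the time of day changes that response, and whether the clock genes do. The paper cautions that expression peaks come earlier in *cca1lhy* and later in *prr7prr9*. With each mutant sampled at a single time of day, a shift in timing cannot be told apart from a change of level.

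NLR proteins sense pathogen molecules, or their effects on host proteins, inside the cell. Sensors with a TIR domain signal through the EDS1 family to helper NLRs, sensors with a coiled-coil (CC) domain mostly act without EDS1, and TIR-NBS proteins lack the leucine-rich repeats. Many lie in clusters of similar genes named for the pathogen they recognise, such as RPP for the downy mildew agent, and several cause growth defects at particular temperatures when mutated or overexpressed.

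The deposited values are log2 CPM (read counts scaled to library size), which the authors normalized separately at each time of day after adding 5 reads to every gene. Fold changes (LFC, log2) are differences of these values, so they understate the changes of genes with few reads, and levels were not tested between the times. Libraries hold 1.09 to 10.5 M reads at ZT1 and 12.6 to 28.4 M reads at ZT6, and the median NLR gene has 2 to 62.5 reads in a ZT1 library and 55.5 to 158 in a ZT6 library. The 4 WT libraries at 37 °C and ZT1 are among the shallowest, with 1.23 to 1.60 M reads and a median of 2 or 3 reads per NLR gene. A gene was called a DEG at a Benjamini-Hochberg adjusted p under 0.05 over all genes in limma and an absolute LFC over 1. The labels do not say that replicates came from separate cultures, so p-values measure the spread between these libraries. Of the 150 genes 142 could be tested at ZT1 and 148 at ZT6, 68 were called in at least 1 comparison and 82 in none. The share of all genes called at least once was not worked out, so these counts show nothing particular to NLR genes. The libraries fit their labels for CCA1, which lay at 2.03 to 5.29 log2 CPM in *cca1lhy* and 8.26 to 9.64 in WT, and for PRR7, at 1.73 to 3.70 in *prr7prr9* and 6.52 to 8.54 in WT.

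The promoters of 3 TIR-NBS-LRR genes of chromosome 4 are shown because these neighbours, RPP4, RPP5 and SNC1, had the largest LFCs between *cca1lhy* and WT at 37 °C, and that of the TIR-NBS gene AT1G66090 because it was the 1 receptor gene called higher at 37 °C in all 4 sets of genotype and time. Each run is the 250 bases before the annotated start, written 5′ to 3′ on the gene's strand, from the RefSeq genome TAIR10.1. Capitals mark the evening element AAATATCT, the site through which CCA1 and LHY are known to act on evening clock genes. It was searched on both strands with the related CCA1-binding site AAAAATCT. RPP4 lies at chr4:9488466-9495837 on the minus strand (promoter chr4:9495838-9496087), SNC1 at chr4:9500271-9505972, minus (chr4:9505973-9506222), RPP5 at chr4:9538233-9544755, minus (chr4:9544756-9545005), and AT1G66090 at chr1:24602033-24604763, plus (chr1:24601783-24602032).
RPP4: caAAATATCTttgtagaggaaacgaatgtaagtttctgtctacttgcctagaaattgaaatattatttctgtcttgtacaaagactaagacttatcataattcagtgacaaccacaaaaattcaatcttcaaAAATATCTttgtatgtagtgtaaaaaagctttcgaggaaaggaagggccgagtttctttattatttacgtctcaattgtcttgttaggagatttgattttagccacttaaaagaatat
SNC1: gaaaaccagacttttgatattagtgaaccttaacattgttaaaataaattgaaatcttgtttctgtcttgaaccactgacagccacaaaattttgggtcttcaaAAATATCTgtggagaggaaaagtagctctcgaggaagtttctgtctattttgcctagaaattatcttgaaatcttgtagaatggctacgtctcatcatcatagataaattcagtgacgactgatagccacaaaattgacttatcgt
RPP5: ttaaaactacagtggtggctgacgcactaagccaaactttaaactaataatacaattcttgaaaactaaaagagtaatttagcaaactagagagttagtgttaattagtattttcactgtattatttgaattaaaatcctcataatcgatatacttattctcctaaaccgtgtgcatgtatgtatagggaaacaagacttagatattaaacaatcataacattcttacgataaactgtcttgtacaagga
AT1G66090: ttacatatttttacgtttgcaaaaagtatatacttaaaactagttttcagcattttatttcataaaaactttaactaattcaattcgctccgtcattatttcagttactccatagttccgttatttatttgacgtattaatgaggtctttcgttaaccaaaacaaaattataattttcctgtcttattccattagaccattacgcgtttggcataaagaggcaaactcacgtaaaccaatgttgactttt

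RPP4 has 2 evening elements, at −248 to −241 and −118 to −111 from the start, SNC1 has 1 at −146 to −139 and RPP5 has 0. The element occurs in 4.79% of 27443 promoters of this length and in 6 of the 150 NLR promoters (4%), and the CCA1-binding site in 6.69% and in 5 (3.33%). The AT1G66090 run has no heat shock element GAANNTTC on either strand, a motif found in 9.55% of all promoters and in 27 of the 150 NLR promoters (18%). It occurs in 1 of the 18 promoters of the NLR genes that rose in WT under heat at ZT6. A match is a description of the letters and does not show that a factor binds there.

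In WT at ZT1, 1 h at 37 °C lowered 12 NLR genes and raised 1. They include RPP7 and the RPP5-cluster genes SNC1 and RLM3, among the most abundant receptors at 22 °C. Of all genes tested 6.3% fell and 6.97% rose, against 8.45% and 0.704% of the 142 NLR genes. The median LFC of the NLR genes was −0.24, against −0.06 over all genes, and 103 of the 142 were negative. By class the falls were 8 of 83 TIR-NBS-LRR, 1 of 12 TIR-NBS, 1 of 24 CC-NBS-LRR and 2 of 23 others.

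**Figure D1:**
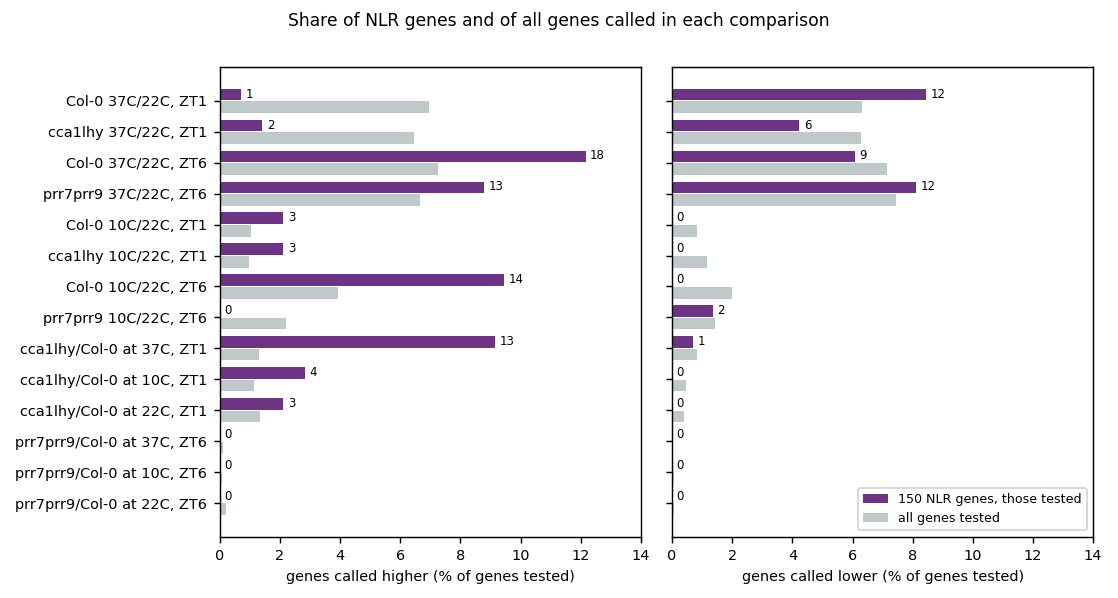
Share of the NLR genes tested and of all genes tested that were called higher or lower in each of 14 comparisons (percent, with the number of NLR genes beside each bar). NLR genes fell more often than they rose in WT at 37 °C and ZT1 (12 against 1), and rose more often than they fell at ZT6 at 37 °C (18 against 9) and 10 °C (14 against 0).

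RPP7, a sensor for downy mildew, had 4.49, 3.51, 4.69 and 4.44 log2 CPM in the 4 WT libraries at 37 °C and 7.13, 5.81, 6.63 and 7.08 in those at 22 °C. The groups do not overlap, and the LFC was −2.37 (SE 0.27, adjusted p = 2.05e-07 in limma). SNC1, whose gain-of-function mutant has constitutive immunity, had 5.22, 4.40, 5.27 and 5.28 at 37 °C and 7.17, 5.65, 6.29 and 6.85 at 22 °C, an LFC of −1.45 (SE 0.27, adjusted p = 0.000176) with every heated library below every 22 °C library. RLM3, a TIR gene needed for resistance to necrotrophic fungi, had an LFC of −1.03 (adjusted p = 5.9e-05), which was −0.92 to −0.98 and so under the fold threshold without WT 37 °C replicate 1 or 2 or WT 22 °C replicate 1 or 4.

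A pair of neighbouring TIR genes of chromosome 5 fell together. VICTL (AT5G46510) had 3.62, 2.80, 3.02 and 2.34 at 37 °C and 4.89, 3.87, 4.08 and 4.54 at 22 °C (LFC −1.40, SE 0.26, adjusted p = 0.00019 in limma). VICTR (AT5G46520), whose variants alter root responses to a small molecule, had 1.81, 1.82, 2.62 and 2.98 at 37 °C and 3.69, 3.45, 3.46 and 3.36 at 22 °C (LFC −1.18, SE 0.28, adjusted p = 0.00172). Neither pair of groups overlaps, though 47.8% and 62.3% of the exonic 75-base windows of VICTL and VICTR occur elsewhere in the genome, so their reads could be split. LOV1, which confers sensitivity to the fungal toxin victorin, had 3.33, 1.82, 1.23 and 1.23 at 37 °C and 3.75, 2.87, 3.36 and 3.22 at 22 °C. Its groups overlap, and its LFC was −1.40 (SE 0.34, adjusted p = 0.00271).

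The other falls were AT1G62630 (−1.29) and AT5G40910 (−1.23), which held without any single library, and AT5G36930 (−1.04), AT2G17060 (−1.02), AT5G46260 (−1.003) and RRS1 (−1.0025, named after its values were seen), which did not. AT5G36930 was at −0.85 to −0.91 without WT 37 °C replicate 1 or 2 or WT 22 °C replicate 1. AT2G17060 was at −0.99 and −0.90 without WT 22 °C replicates 4 and 3, and RRS1 at −0.85 to −0.99 without WT 37 °C replicate 1 or 3 or WT 22 °C replicate 1 or 4. AT5G46260 was at −0.77 (adjusted p = 0.0847 in limma), −0.97 and −0.94 without WT 37 °C replicates 1 and 2 and WT 22 °C replicate 4. The number of falls lay between 8 and 18 when 1 library was left out. All 12 were also called on the reads recovered from the values with 0.5 CPM added, a scale on which 44 NLR genes fell and 1 rose, against 19.1% and 7.61% of all genes. On it the median LFC over all genes was −0.32, and that of the NLR genes lay 0.45 below it (−0.77), against 0.18 below on the deposited scale.

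The gene that rose was AT1G66090, a TIR-NBS gene. It had 3.62, 3.51, 3.33 and 4.03 log2 CPM in WT at 37 °C and 1.36, 1.84, 1.23 and 2.18 at 22 °C at ZT1, from 7 to 15 reads in the heated libraries and 0 to 4 in the others. The LFC was 1.97 (SE 0.25, adjusted p = 1.03e-06 in limma). In *cca1lhy* it had 4.20, 3.99, 4.05 and 3.01 at 37 °C and 1.50, 1.23, 1.52 and 1.53 at 22 °C, an LFC of 2.37 (adjusted p = 6.34e-08). At ZT6, where the libraries are deeper, it had 3.67 and 4.11 in WT at 37 °C (152 and 208 reads) and 0.09 and 0.30 at 22 °C (12 and 19 reads), an LFC of 3.69 (SE 0.41, adjusted p = 0.000271). In *prr7prr9* it had 3.69 and 3.06 at 37 °C and −0.55 and 0.13 at 22 °C (LFC 3.58, adjusted p = 0.000334). In all 4 sets every heated library lay above every 22 °C library.

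**Figure D2:**
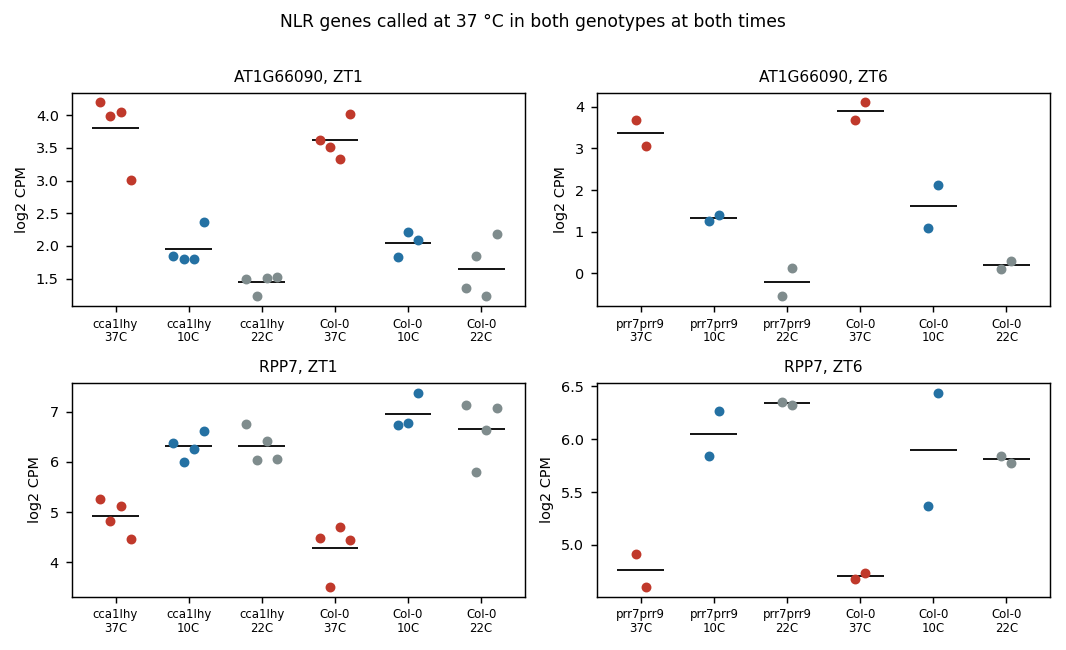
Log2 CPM (y) of AT1G66090 and RPP7 in each library by genotype and temperature at ZT1 and ZT6; points are libraries and bars are group means. AT1G66090 was higher and RPP7 lower at 37 °C than at 22 °C in both genotypes at both times.

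RPP7 was the 1 NLR gene called lower at 37 °C in all 4 sets. In *cca1lhy* at ZT1 it had 5.25, 4.83, 5.13 and 4.46 at 37 °C and 6.75, 6.03, 6.42 and 6.07 at 22 °C (LFC −1.40, adjusted p = 0.00028 in limma). At ZT6 it had 4.92 and 4.60 in *prr7prr9* at 37 °C and 6.35 and 6.33 at 22 °C (LFC −1.58, adjusted p = 0.00525), and 4.68 and 4.73 in WT at 37 °C and 5.84 and 5.77 at 22 °C (LFC −1.10, adjusted p = 0.0265). The groups are apart in every set, but the adjusted p of WT at ZT6 was 0.0821 to 0.104 without any 1 of the WT 37 °C replicates 2 and 3 and WT 22 °C replicates 2 and 3, at an LFC of −1.07 to −1.14.

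Summed over the 150 genes, WT libraries at ZT1 gave 1124 ± 291 summed NLR CPM at 37 °C (SD, n = 4; range 730 to 1366) and 1809 ± 601 at 22 °C (n = 4; 1105 to 2474), which overlap. Leaf markers (CAB1, RBCS1A and LHCB2.2) moved with the treatment in the same libraries. All 3 were called lower, and their summed level was 12200 to 16600 CPM at 37 °C and 60150 to 62560 at 22 °C. The 5 root markers summed to 66.0 to 113 CPM at 37 °C and 181 to 332 at 22 °C, and 2 of them were called lower. Their part in the NLR result was not tested, and fewer cells of a type cannot be told apart from less RNA per cell in whole seedlings.

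At ZT6 heat raised more NLR genes in WT than it lowered. Of the 148 tested 18 rose and 9 fell, against 7.25% and 7.16% of all genes. The median LFC was 0.04, against 0 over all genes, and on the recovered reads it was −0.04, against −0.10, with 15 rises and 10 falls. CC-NBS-LRR genes gave 4 rises and 0 falls of 25, TIR-NBS-LRR genes 8 and 7 of 86, TIR-NBS genes 1 and 1 of 12, and the others 5 and 1 of 25. These classes follow the wording of the descriptions, and the others include the rises SUMM2 and AT3G46730 and the fall RPP7. The leaf markers summed to 14780 to 23090 CPM at 37 °C and 31660 to 47370 at 22 °C, with LHCB2.2 called lower, and the root markers to 38.8 to 45.04 and 57.2 to 68.6 CPM, with IRT1 called lower. Their part in the NLR result was not tested. Leaving out 1 library left 10 to 19 rises and 3 to 9 falls: 11 rises without WT 37 °C replicate 3 and 10 without WT 22 °C replicate 3, and 4 falls without either WT 37 °C replicate and 3 without either WT 22 °C replicate. With 2 libraries per group, 8 of the 18 rises and 2 of the 9 falls kept their call whichever library was left out. A fit of the 4 compared libraries alone called 1 rise and 2 falls (1.49% and 0.482% of all genes), and a fit without the 4 ZT6 libraries with the most detected genes (*prr7prr9* 37 °C replicate 3, 22 °C replicate 3 and 10 °C replicate 2, and WT 37 °C replicate 2) called 0 of either (1.77% and 0.562% of all genes).

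After AT1G66090 the largest rise was AT3G46730, whose description names no first domain. It had 2.38 and 2.10 log2 CPM at 37 °C and −0.47 and −0.07 at 22 °C (LFC 2.51, SE 0.33, adjusted p = 0.000727 in limma), with no overlap and the same in *prr7prr9*, 2.42 and 2.51 at 37 °C and 0.67 and 0.09 at 22 °C (LFC 2.09, adjusted p = 0.00213). An annotated antisense gene covers 42.2% of its exons, and whether counting used strand is not given in the sources used here. SOC3, a TIR-NBS-LRR partner of CHS1 and TN2 in chilling-induced immunity, had 2.46 and 2.72 at 37 °C and 0.71 and 0.98 at 22 °C (LFC 1.75, SE 0.28, adjusted p = 0.00242). It rose likewise in *prr7prr9*, with 3.31 and 2.87 at 37 °C and 1.44 and 1.35 at 22 °C (LFC 1.70, adjusted p = 0.00297). CHS1 overlaps 48.3% of the exons of SOC3 on the other strand, was not called in WT at ZT6 (LFC 0.33) and held 15 to 18 reads per heated and 23 to 26 per 22 °C library.

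AT1G58807 and AT1G59124, 2 CC-NBS-LRR genes of the RPP7 region of chromosome 1 whose exon sequences are identical in every 75-base window, were the most abundant receptors per exon length under heat, so each value may be shared by both. AT1G58807 had 7.62 and 7.32 log2 CPM at 37 °C and 5.80 and 5.78 at 22 °C (LFC 1.68, SE 0.30, adjusted p = 0.00436 in limma), and AT1G59124 7.61 and 7.30 against 5.77 and 5.81 (LFC 1.67, adjusted p = 0.00343). They reached 45.2 and 44.8 RPKM (reads scaled to exon length and library size) in WT at 37 °C and ZT6. RPP7, which lies beside them at chr1:21746354-21766048 (AT1G58807 at chr1:21780076-21784581), moved the other way in the same libraries. AT1G58848 and AT1G59218 of the same region have 99.3% and 100% of their windows elsewhere in the genome, so their values may be shared too.

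SUMM2, a sensor that watches a MAP kinase cascade, is described without a named first domain. It had 4.07 and 3.64 at 37 °C and 2.88 and 2.46 at 22 °C (LFC 1.19, SE 0.27, adjusted p = 0.0128 in limma). Its LFC was 0.98, under the fold threshold, without WT 37 °C replicate 2 or WT 22 °C replicate 3. AT5G58120 had 3.17 and 3.23 at 37 °C and 1.46 and 1.79 at 22 °C (LFC 1.57, adjusted p = 0.00507). Among the falls, AT2G17050 was close to its floor, with −1.55 and −1.68 at 37 °C (0 or 1 read) and 0.09 and −0.13 at 22 °C (12 reads each), an LFC of −1.60 (adjusted p = 0.00504). VICTL fell by 1.26 (adjusted p = 0.00566) and VICTR by 1.01 (adjusted p = 0.0192). VICTR had an adjusted p of 0.0626 to 0.0875 without any 1 of the 4 WT libraries at 37 °C and 22 °C.

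The remaining rises had LFCs between 1.01 and 1.65, and of them AT5G47250 (1.62) and AT5G35450 (1.44) held without any single library. AT4G16940 (1.65), AT1G63730 (1.57), AT3G14460 (1.57), AT5G46490 (1.47), AT4G14370 (1.44), AT5G46260 (1.24), AT5G05400 (1.17), AT5G51630 (1.099) and AT1G59218 (1.01) each lost the call without at least 1 WT library at 37 °C or 22 °C. The largest move was AT1G63730, at 0.75 without WT 37 °C replicate 3. The remaining falls AT4G09420 (−1.50), AT4G23510 (−1.49), AT5G38340 (−1.38), AT4G36140 (−1.13) and AT4G08450 (−1.11) each lost the call in the same way, and AT4G09420 was at −0.99 without WT 37 °C replicate 2.

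The WT heat calls of the 2 times, which share no library, overlap in 3 falls (RPP7, VICTL and VICTR; 25% of the 12 at ZT1 and 33.3% of the 9 at ZT6) and in 1 rise (AT1G66090; 100% of 1 and 5.56% of 18). How far the calls of all genes overlap between the times was not worked out. The difference of the heat LFCs, ZT6 minus ZT1, was tested at an adjusted p under 0.05. It was called positive for 16 NLR genes and negative for 3 of 142, against 5.23% and 4.21% of 25631 genes. The median difference was 0.44, against −0.02 over all genes, and 100 of the 142 were positive. On the recovered reads 23 were positive and 0 negative, and the median was 0.78, against 0.13 over all genes. The shares of all genes called on that scale are not given here, so these counts cannot be set against 5.23% and 4.21%. Leaving out 1 library gave 5 to 26 calls, with 5 without WT ZT6 37 °C replicate 3 or WT ZT6 22 °C replicate 2, 7 without ZT6 37 °C replicate 2, 9 without ZT6 22 °C replicate 3 and 12 without ZT1 37 °C replicate 2.

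**Figure D3:**
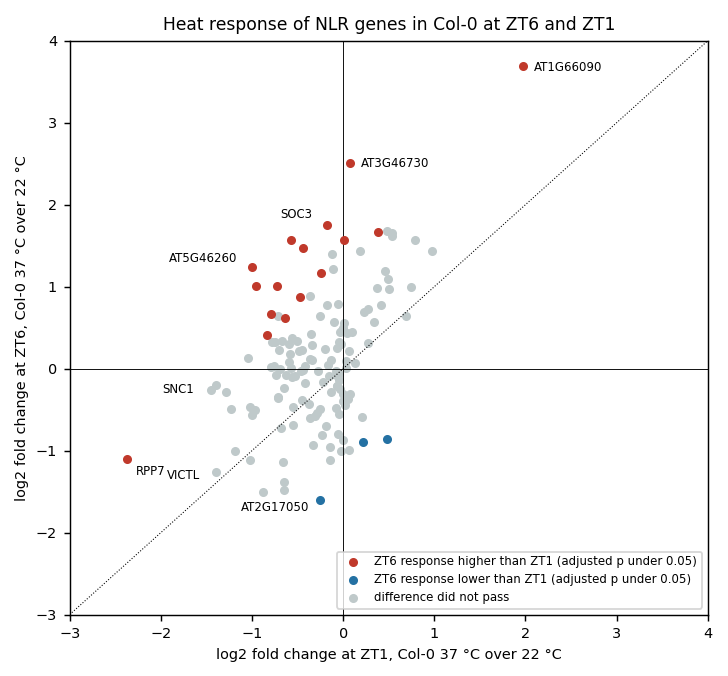
LFC of WT at 37 °C over 22 °C at ZT6 (y) against ZT1 (x) for 142 NLR genes; red marks the 16 whose LFC was higher at ZT6, blue the 3 whose LFC was lower, grey the other 123. Points above the diagonal outnumber those below it, 100 to 42.

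AT3G46730 had a difference of 2.43 (SE 0.43, adjusted p = 0.000988 with Satterthwaite degrees of freedom), SOC3 of 1.93 (SE 0.34, adjusted p = 0.00172) and AT5G46260 of 2.24 (SE 0.47, adjusted p = 0.00313), and these 3 kept the call whichever library was left out. AT3G46730 had an LFC of 0.07 at ZT1. AT5G46260, a TIR-NBS-LRR gene at chr5:18758699-18763503, was called in opposite directions. It had 1.23, 1.82, 2.35 and 2.34 in WT at 37 °C and 2.79, 2.87, 2.95 and 3.14 at 22 °C at ZT1, and 1.34 and 2.04 at 37 °C and 0.60 and 0.30 at 22 °C at ZT6. The heated libraries lay below those of 22 °C at ZT1, on 0 to 2 reads, and above them at ZT6 (LFC 1.24, adjusted p = 0.028 in limma; 0.89 with adjusted p = 0.161 without WT 37 °C replicate 3).

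AT3G44630 (1.97), AT5G46490 (1.91) and AT5G58120 (1.56) also responded more positively to heat at ZT6. They lost the call without 2 ZT6 libraries each, WT 37 °C replicate 3 and WT 22 °C replicate 2 for AT3G44630 (adjusted p = 0.0818 and 0.0779) and for AT5G58120 (0.0681 and 0.0682), and WT 37 °C replicate 2 and WT 22 °C replicate 3 for AT5G46490 (0.0679 and 0.0557), from limma fits of each time. AT1G66090 had a difference of 1.72 (adjusted p = 0.0324), which was 0.74 (adjusted p = 0.593) on the recovered reads, so the larger LFC of this gene at ZT6 was not distinguishable there. RPP7 had 1.27 (adjusted p = 0.0455), which was 1.65 (adjusted p = 0.00697) on that scale and lay between 0.0533 and 0.155 in adjusted p without any 1 of several libraries of either time. The 3 negative differences, AT2G17050 (−1.35), AT4G19050 (−1.35) and AT5G45000 (−1.12), were not called on the recovered reads.

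Cold changed few NLR genes at ZT1. In WT 3 rose and 0 fell, against 1.03% and 0.84% of all genes, and no fall was found by limma when any 1 library was left out, though 17 genes had an unadjusted p under 0.05 in either direction. In *cca1lhy* 3 rose and 0 fell, against 0.983% and 1.16%. AT1G63880 and AT3G04210 rose in both genotypes (66.7% of 3 in each), which share no library.

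AT1G63880, a TIR-NBS-LRR gene at chr1:23712216-23716206, had 4.31, 4.45 and 4.49 log2 CPM in WT at 10 °C and 2.63, 2.202, 3.09 and 2.59 at 22 °C (LFC 1.79, SE 0.28, adjusted p = 0.000217 in limma). In *cca1lhy* it had 5.66, 5.48, 5.61 and 5.86 at 10 °C and 4.28, 4.12, 4.78 and 4.43 at 22 °C (LFC 1.25, adjusted p = 0.00323; 1.29 with adjusted p = 0.0636 on the recovered reads). Every cold library lay above every 22 °C library of its genotype.

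AT3G04210, a TIR-NBS gene at chr3:1105650-1108252, rose at ZT1 and fell at ZT6. At ZT1 *cca1lhy* had 3.61, 3.32, 3.14 and 3.83 at 10 °C and 1.96, 2.22, 1.82 and 2.03 at 22 °C (LFC 1.47, adjusted p = 0.000284 in limma), and WT 2.18, 3.33 and 3.08 at 10 °C and 1.86, 1.23, 1.81 and 2.02 at 22 °C (LFC 1.14, adjusted p = 0.0109). The WT call was lost without WT 22 °C replicate 2 (0.97) or WT 10 °C replicate 3 (0.90) or 4 (1.03). At ZT6 *prr7prr9* had 2.28 and 2.11 at 10 °C and 3.92 and 3.93 at 22 °C (LFC −1.72, adjusted p = 0.00409; 0.0553 without *prr7prr9* 10 °C replicate 2), and WT 2.59 and 3.29 at 10 °C and 3.81 and 3.82 at 22 °C (LFC −0.88, adjusted p = 0.052). The WT difference, ZT6 minus ZT1, was −2.01 (adjusted p = 0.000217) and held without any single library.

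At ZT6 cold raised 14 NLR genes in WT and lowered 0, against 3.94% and 2% of all genes. The median LFC was 0.20, against 0 over all genes, and 95 of the 148 were positive and 52 negative. The rises were 9 TIR-NBS-LRR, 1 TIR-NBS, 3 CC-NBS-LRR and 1 other gene. In *prr7prr9* 0 rose and 2 fell, AT3G04210 and SOC3, against 2.19% and 1.42% of all genes. SOC3 was thus called lower in the cold and higher under heat in this mutant. Of the 2 cold falls 0 kept the call whichever library was left out, and 1 was also called on the recovered reads. The WT count depended on single libraries and was 3 without WT 10 °C replicate 2 (which gave 2 falls) or WT 22 °C replicate 2, 6 without WT 22 °C replicate 3 and 9 without either *prr7prr9* 10 °C replicate. WT 10 °C replicate 2 had a summed NLR level of 3222 CPM and replicate 1 of 1844 CPM, against 1849 and 1853 CPM in the WT libraries at 22 °C. Both the fit of the 4 compared libraries alone and that without the 4 libraries with the most detected genes called 0 NLR genes in WT (rises of all genes 0.0996% and 0.0867%). The root markers summed to 85.9 to 113 CPM in WT at 10 °C and 57.2 to 68.6 at 22 °C, with 0 of 5 called, and their part was not tested. The recovered reads gave 15 rises and 0 falls in WT and 6 rises and 2 falls in *prr7prr9*.

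The largest rises were the neighbours AT5G41750 and AT5G41740, a TIR-NBS-LRR pair at chr5:16688626-16699028. AT5G41750 had 2.48 and 3.68 log2 CPM in WT at 10 °C and −0.13 and 0.41 at 22 °C (LFC 2.95, SE 0.52, adjusted p = 0.00852 in limma), and AT5G41740 had 2.11 and 4.09 at 10 °C and 0.25 and 0.56 at 22 °C (LFC 2.70, SE 0.61, adjusted p = 0.0252). Both cold libraries lay above both at 22 °C, with replicate 2 the higher. Without it the LFCs were 2.35 (adjusted p = 0.055) and 1.71 (0.114), and without WT 22 °C replicate 2 they were 2.68 (0.0534) and 2.55 (0.106). AT5G41740 was also lost without WT 22 °C replicate 3 (2.86, adjusted p = 0.079).

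In *prr7prr9* AT5G41750 had 1.52 and 1.87 at 10 °C and −0.40 and −0.36 at 22 °C (LFC 2.07, adjusted p = 0.0545 in limma), which missed the threshold. At ZT1 WT had 3.83, 3.31 and 3.05 at 10 °C and 2.04, 1.84, 2.13 and 2.46 at 22 °C (LFC 1.28, adjusted p = 0.0226), so that this was the 1 gene called higher in the cold in WT at both times (33.3% of the 3 at ZT1 and 7.14% of the 14 at ZT6). The ZT1 call was lost without WT 10 °C replicate 2 (adjusted p = 0.173) or 3 (0.0706), without WT 22 °C replicate 2 (0.0611) or 3 (0.0504), and on the recovered reads (LFC 2.08, adjusted p = 0.0687).

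**Figure D4:**
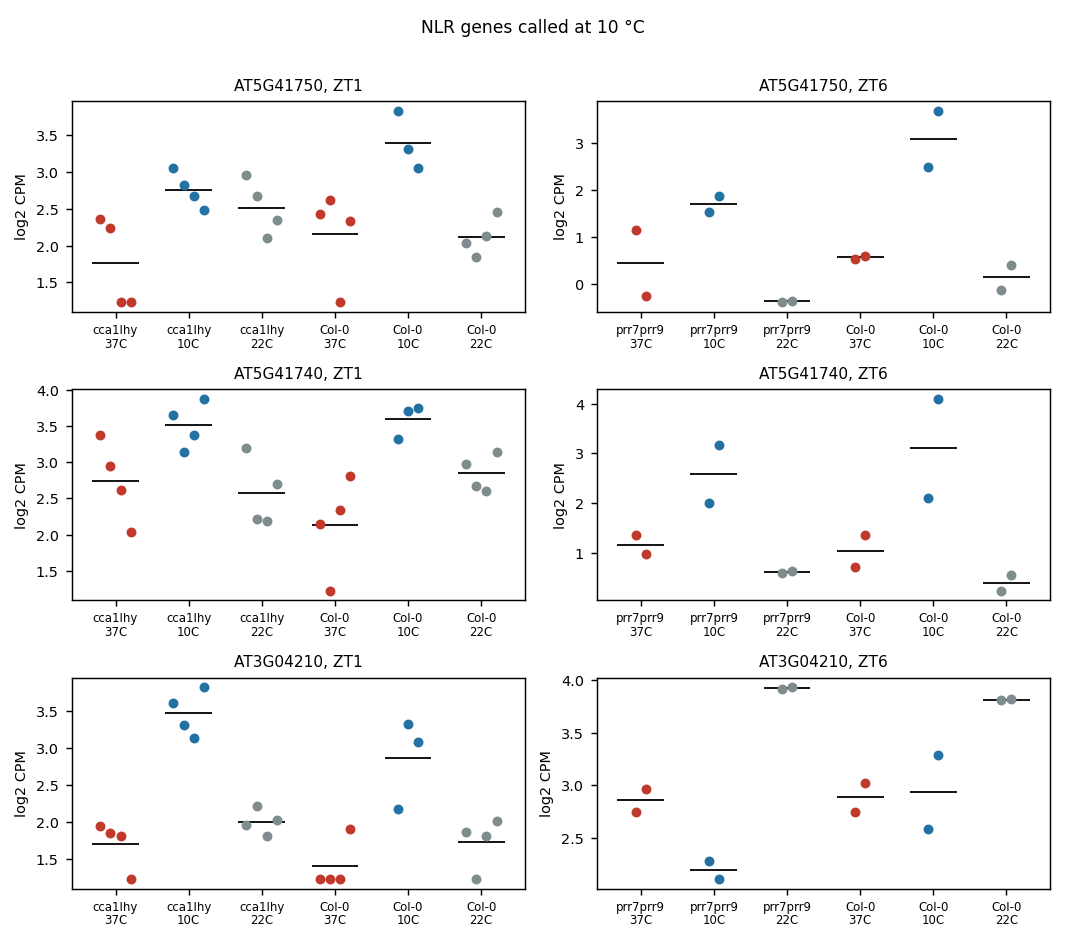
Log2 CPM (y) of AT5G41750, AT5G41740 and AT3G04210 in each library by genotype and temperature at ZT1 and ZT6; points are libraries and bars are group means. At ZT6 AT5G41750 and AT5G41740 lay higher at 10 °C than at 22 °C and AT3G04210 lay lower.

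AT3G44630, a TIR-NBS-LRR gene of the RPP1 cluster, had 4.84 and 5.75 log2 CPM in WT at 10 °C and 2.71 and 3.37 at 22 °C (LFC 2.25, SE 0.37, adjusted p = 0.00642 in limma), and AT5G43740, a CC-NBS-LRR gene, 4.32 and 4.88 against 3.09 and 3.24 (LFC 1.43, adjusted p = 0.00463). With AT1G72890 (1.31, named after its values were seen) these were the 3 rises that held without any single library. RPP1, a sensor for downy mildew, had an LFC of 1.46 (adjusted p = 0.025), 0.92 (0.104) without WT 10 °C replicate 2 and 1.48 and 1.44 (0.0901 and 0.0952) without WT 22 °C replicates 3 and 2. WRR4A, a white rust receptor, had 1.56 (adjusted p = 0.0187), 1.03 (0.0804) without WT 10 °C replicate 2 and 1.31 (0.0991) without WT 22 °C replicate 2. The other 7 rises lay between 1.01 and 1.46 in LFC.

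The cold LFC differed between ZT6 and ZT1 in WT for 7 NLR genes, 5 higher and 2 lower at ZT6, against 5.77% and 5.13% of all genes. AT3G44630 had a difference of 2.35 (adjusted p = 0.00164), AT5G58120 of 1.90 (0.00146), RPP1 of 1.82 (0.00787) and AT5G43740 of 1.34 (0.00429), from limma fits of each time, and each held without any single library. AT1G61300 (1.31) and AT4G19050 (−1.30) were not called on the recovered reads. The count was 6 to 15 when 1 library was left out, with 11 without WT ZT1 22 °C replicate 2 and 15 without WT ZT6 10 °C replicate 1.

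At 37 °C *cca1lhy* had more transcript than WT for 13 NLR genes and less for 1 of the 142 tested at ZT1, against 1.31% and 0.824% of all genes. The median LFC was 0.26, against 0 over all genes, with 96 positive and 43 negative. A fit of the 8 compared libraries alone called 6 higher and 0 lower, and the recovered reads gave 20 higher and 1 lower. At 22 °C it was higher for 3 and lower for 0 (1.33% and 0.385% of all genes), and at 10 °C higher for 4 and lower for 0 (1.12% and 0.455%). Of the 13, 5 are TIR-NBS-LRR genes of the RPP5 cluster, chr4:9488466-9565569. The summed level of the leaf markers also differed at 37 °C, at 28300 to 42340 CPM in *cca1lhy* and 12200 to 16600 in WT. Of these markers only CAB1 was called higher (LFC 1.89), and LHCB2.2 (0.81) and RBCS1A (−0.04) were not called. Their part in the result was not tested.

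RPP4, a downy mildew receptor also known as the chilling-sensitivity gene CHS2, differed most. It had 6.04, 5.80, 6.29 and 5.49 log2 CPM in *cca1lhy* at 37 °C and 2.81, 2.80, 2.83 and 2.98 in WT (4 or 5 reads per WT library), an LFC of 3.05 (SE 0.28, adjusted p = 1.26e-07 in limma). At 10 °C it had 5.62, 5.41, 6.28 and 6.21 in *cca1lhy* and 3.46, 3.33 and 3.46 in WT (LFC 2.46, SE 0.30, adjusted p = 1.03e-05), and at 22 °C 6.83, 5.37, 5.61 and 4.90 in *cca1lhy* and 3.33, 2.67, 3.09 and 2.89 in WT (LFC 2.68, adjusted p = 6.57e-07). Every *cca1lhy* library lay above every WT library at ZT1. Temperature did not change it detectably in either genotype. By RPKM it ranked 9th of the NLR genes in *cca1lhy* at 22 °C and ZT1 (14.3 ± 9.35, SD, n = 4) and 63rd in WT (1.45 ± 0.496, n = 4). In WT at ZT6, a separately normalized table, it ranked 11th (12.5, mean of 2). Whether the *cca1lhy* level at ZT1 reflects an earlier peak was not tested.

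RPP4 is the gene of the 3 with 2 evening elements in the sequences above. RPP5, whose sequence has 0, had 5.70, 5.89, 6.06 and 5.91 in *cca1lhy* at 37 °C and 4.00, 3.59, 4.34 and 4.79 in WT (LFC 1.71, SE 0.23, adjusted p = 3.09e-05 in limma). At 22 °C it had 6.34, 5.99, 6.34 and 5.63 in *cca1lhy* and 5.16, 4.18, 4.61 and 4.98 in WT (LFC 1.34, adjusted p = 0.000518), and at 10 °C the LFC was 0.96 (adjusted p = 0.0286). The genotypes do not overlap at 37 °C or 22 °C. Windows of 75 bases found elsewhere make up 35.7% of RPP5, 16.6% of RPP4 and 9.40% of SNC1, and an antisense gene covers 14.1% of the exons of RPP5.

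**Figure D5:**
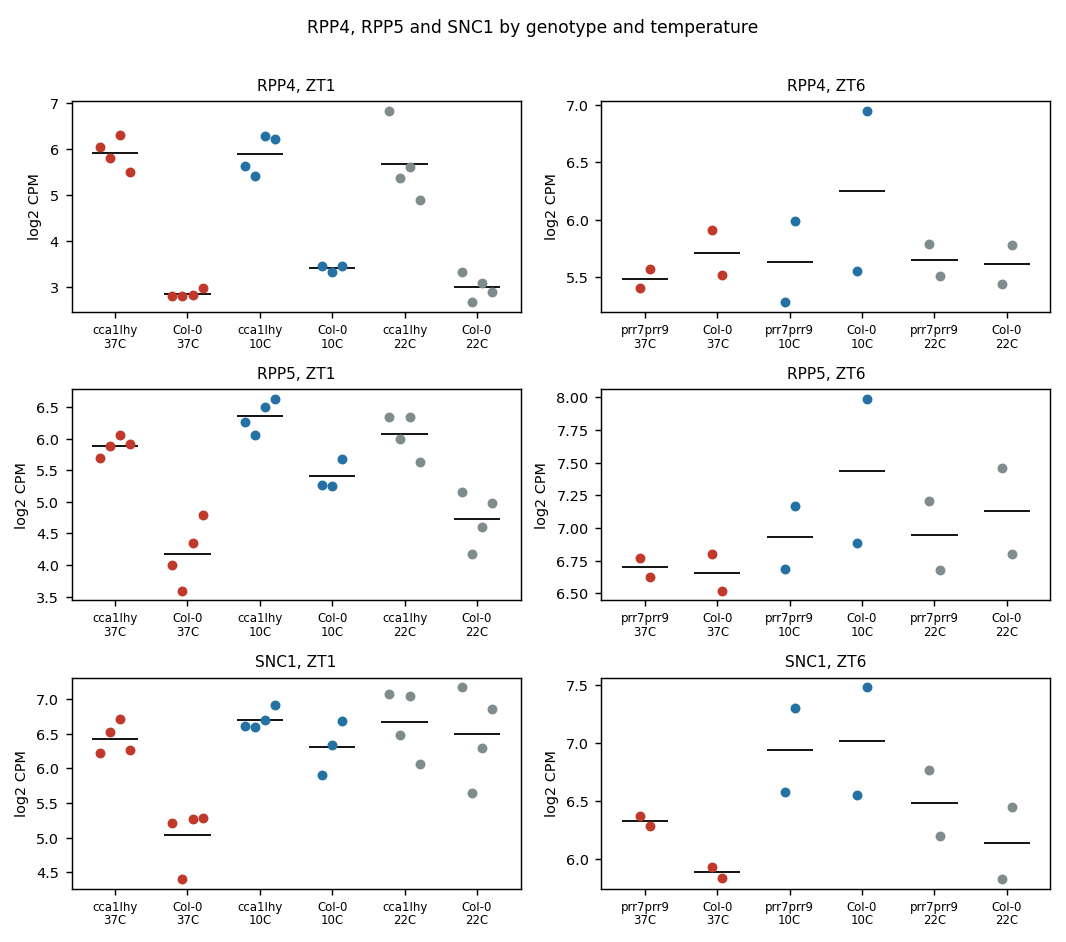
Log2 CPM (y) of RPP4, RPP5 and SNC1 in each library by temperature, the mutant beside WT, at ZT1 (*cca1lhy*) and ZT6 (*prr7prr9*); points are libraries and bars are group means. RPP4 lay higher in *cca1lhy* than in WT at each temperature at ZT1, SNC1 at 37 °C, and neither was called between *prr7prr9* and WT at ZT6.

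SNC1 differed between the genotypes at 37 °C, where *cca1lhy* had 6.22, 6.53, 6.71 and 6.27 and WT 5.22, 4.40, 5.27 and 5.28 (LFC 1.39, SE 0.27, adjusted p = 0.00213 in limma). At 22 °C *cca1lhy* had 7.07, 6.48, 7.04 and 6.07 and WT 7.17, 5.65, 6.29 and 6.85, which overlap (LFC 0.17). Heat gave an LFC of −0.23 (adjusted p = 0.56) in *cca1lhy* and −1.45 in WT, and the interaction was 1.21 (SE 0.38, adjusted p = 0.145), so a different heat response was not shown. In the same cluster AT4G16920 (1.27, adjusted p = 0.00204) and AT4G16900 (1.06, adjusted p = 0.00651), both named after their values were seen, were higher in *cca1lhy* at 37 °C. AT4G16900 was at 0.92 to 0.99 without WT 37 °C replicate 1 or 2 or *cca1lhy* 37 °C replicate 3. The other 3 genes of the cluster, RLM3 (0.97), AT4G16960 (1.08, adjusted p = 0.069) and AT4G16940 (0.67), were not called.

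AT1G63880, the cold-responsive TIR-NBS-LRR gene, was higher in *cca1lhy* at every temperature. At 37 °C it had 2.67, 3.46, 3.48 and 3.46 in *cca1lhy* and 1.81, 2.80, 1.23 and 1.91 in WT (LFC 1.33, adjusted p = 0.00223 in limma), and the LFC was 1.78 at 22 °C (adjusted p = 9.24e-05) and 1.24 at 10 °C (adjusted p = 0.0115; 0.0733 without WT 10 °C replicate 2 and 0.139 on the recovered reads). The genotypes overlap at 37 °C only. AT5G38850, a TIR-NBS-LRR gene, was the 1 NLR gene whose heat response differed between the genotypes (0.913% of all genes did). It had 3.51, 3.76, 4.00 and 3.38 in *cca1lhy* at 37 °C and 2.66, 2.84, 2.67 and 2.81 at 22 °C, and in WT 2.63, 2.62, 1.94 and 2.34 at 37 °C and 3.02, 2.67, 2.95 and 2.59 at 22 °C. The interaction was 1.34 (SE 0.28, adjusted p = 0.0191). The heat LFC was 0.92 in *cca1lhy* (adjusted p = 0.00091, under the fold threshold) and −0.42 in WT (adjusted p = 0.109).

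The other genes higher in *cca1lhy* at 37 °C had LFCs of 1.08 to 1.305 and included LOV1 (1.27, adjusted p = 0.0261 in limma), AT5G40910 (1.17) and AT5G43730 (1.09). LOV1 had an adjusted p of 0.0579 to 0.0863 without any 1 of WT 37 °C replicates 2, 3 and 4 and *cca1lhy* 37 °C replicates 1 and 3, and AT5G43730 was at 0.87 without WT 37 °C replicate 2. The 1 gene that was lower, AT4G36150 (−1.10, named after its values were seen), was at −0.90 without WT 37 °C replicate 1. At 10 °C AT5G43730 (1.22) and AT5G40100 (1.17) were higher in *cca1lhy*, and both were lost without WT 10 °C replicate 2 (adjusted p = 0.101 and 0.132), AT5G40100 also without WT 10 °C replicate 3 or *cca1lhy* 10 °C replicate 1 or 3 (0.0607 to 0.066). Counts lay between 10 and 19 at 37 °C and between 1 and 7 at 10 °C with 1 library left out, with 1 without WT 10 °C replicate 2 and 7 without *cca1lhy* 10 °C replicate 2.

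Under heat *cca1lhy* itself had 6 falls and 2 rises of NLR genes, against 6.28% and 6.44% of all genes. Its leaf markers summed to 28300 to 42340 CPM at 37 °C and 54690 to 61820 at 22 °C, with 2 of 3 called lower, its root markers to 68.0 to 85.6 and 159 to 249.6 CPM, with 3 of 5 called lower, and their part in the result was not tested. The falls shared with WT, whose libraries are separate, were RPP7, VICTL, VICTR and AT1G62630 (33.3% of the 12 in WT and 66.7% of the 6 in *cca1lhy*). How far the falls of all genes overlap was not worked out. VICTR had an LFC of −1.46 and VICTL of −1.28 in *cca1lhy*, and AT4G09420 fell by 1.16. On the recovered reads 24 fell and 3 rose in *cca1lhy*, and the median of the NLR genes (−0.37) lay 0.06 below that of all genes (−0.31). The cold response differed between *cca1lhy* and WT for 0 NLR genes by limma, with 6 at an unadjusted p under 0.05 and 0.0117% of all genes called.

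At ZT6 the *prr7prr9* mutant was not distinguished from WT in any NLR gene. By limma 0 were called at 37 °C, 22 °C and 10 °C, with 6, 8 and 10 at an unadjusted p under 0.05, and of all genes 0.106% were higher and 0.0385% lower at 37 °C, 0.215% and 0.0707% at 22 °C, and 0.0674% and 0.0739% at 10 °C. Without *prr7prr9* 37 °C replicate 2 the count at 37 °C was 2. RPP4 had 5.41 and 5.57 log2 CPM in *prr7prr9* at 37 °C and 5.91 and 5.52 in WT (LFC −0.22, SE 0.40). Its LFC was 0.04 at 22 °C and −0.62 at 10 °C (adjusted p = 0.684). With 2 libraries per group these values do not show that the genotypes have equal levels.

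Heat in *prr7prr9* raised 13 and lowered 12 NLR genes (6.66% and 7.45% of all genes), and on the recovered reads raised 10 and lowered 15. The leaf markers summed to 16720 to 23660 CPM at 37 °C and 32530 to 43500 at 22 °C, with LHCB2.2 called lower, the root markers to 36.1 to 51.9 and 53.7 to 61.1 CPM, with COBL9 called lower, and their part in the result was not tested. WT, whose libraries are separate, shared 12 of the rises (66.7% of its 18 and 92.3% of the 13) and 5 of the falls (55.6% of 9 and 41.7% of 12). How far the calls of all genes overlap between these sets was not worked out. The response to heat differed between the genotypes for 0 NLR genes by limma, with 3 at an unadjusted p under 0.05 and 0.00321% of all genes called. AT1G63730 rose by an LFC of 2.48, and AT5G38340 and AT2G17060 fell by 2.199 and 2.19. AT2G17060 had an adjusted p of 0.0604 to 0.0942 without *prr7prr9* 37 °C replicate 3 or either *prr7prr9* 22 °C replicate. Leaving out 1 library gave 9 to 25 calls, with 9 and 12 without *prr7prr9* 22 °C replicates 3 and 2 and 14 and 16 without 37 °C replicates 3 and 2. For cold the interaction was also called for 0 NLR genes, with 14 at an unadjusted p under 0.05 and 0.0835% of all genes called. Its median was −0.39 over NLR genes, against 0 over all genes, with 116 of 148 negative, and WT 10 °C replicate 2, the ZT6 library with the highest summed NLR CPM (3222), enters this contrast.

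Many receptors with known roles were not called. The helper genes ADR1, NRG1.1 and NRG1.2 were called in 0 comparisons. ADR1 had 2.63, 2.17, 3.02 and 2.98 log2 CPM in WT at 37 °C and 3.11, 2.202, 2.38 and 3.30 at 22 °C at ZT1, which overlap (LFC −0.05, SE 0.26). The sensors RPS2, RPM1 and RPP13, described without a named first domain, and the TIR sensors DSC1 and CSA1 were also not called in any. Antisense genes cover 92.9% of the exons of RPS2 and 33% of those of RPP13, whose values may include their reads if counting ignored strand. RPP13 had LFCs of 0.07 at ZT1 and 0.22 at ZT6 under heat in WT. TN2 had too few reads to be tested at either time and RLM1 at ZT1.

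Outside the receptors, several chaperones that fold NLR proteins were called higher under heat. Of SGT1A, SGT1B, RAR1 and HSP90.1 to HSP90.4, 4 of 7 rose in WT at 37 °C and ZT1 and 5 of 7 at ZT6 (6.97% and 7.25% of all genes), among them HSP90.1 with LFCs of 8.87 and 8.72, SGT1A with 3.55 and 4.18 and HSP90.2 with 2.04 and 3.46. In the cold 5 of the 7 fell at ZT1 (0.84% of all genes), HSP90.3 with an LFC of −2.84 and HSP90.2 with −2.57. SGT1B and RAR1 were called in no heat comparison.

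Of the EDS1 module, which carries TIR-NLR signals (EDS1, EDS1B, PAD4 and SAG101), with NDR1, which serves CC-NLRs, 0 of 5 were called in WT under heat at ZT1 and 2 fell at ZT6, EDS1 by 1.52 and NDR1 by 1.95, where 7.16% of all genes fell. In *prr7prr9* 4 of the 5 fell under heat (7.45% of all genes), PAD4 among them (−1.37), and in *cca1lhy* 1 did (6.28%), SAG101 (−1.01). The difference between the times in WT was called negative for EDS1 (−1.11) and NDR1 (−2.03), against 4.21% of all genes, and NDR1 had 0, 0, 0 and 9 reads in the WT libraries at 22 °C and ZT1. Of 13 genes of salicylic acid and defence output, 3 rose in WT under heat at ZT1 (PR1 1.11, EDS5 1.04 and NPR3 1.01), where 6.97% of all genes rose, and 2 rose (NPR4 2.00 and NPR3 1.04) and 2 fell (PR5 −1.45 and SARD1 −1.33) at ZT6, against 7.25% and 7.16% of all genes. The surface receptor FLS2 fell under heat at ZT6 (−2.28) and rose in the cold at ZT1 (1.73). None of the 3 guarded proteins was called in a WT comparison. Of the 5 genes that restrain NLRs BAP1 rose in the cold at ZT6 (2.40), where 3.94% of all genes rose.

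Levels in RPKM were low and uneven. In WT at ZT1 the median NLR gene had 0.554 with heat, 1.50 with cold and 1.24 without treatment, and at ZT6 1.13, 1.87 and 1.17 in the same order. In *cca1lhy* it had 0.898 with heat, 1.92 with cold and 1.38 without, and in *prr7prr9* 1.25, 1.47 and 1.54. The 10 highest genes held 33.7% to 47.2% of the sum in every group. In WT at 22 °C the highest were RPP7 (19.9), RLM3 (19.5) and SNC1 (18.9) at ZT1, and RPP5 (25.3), RLM3 (23.6) and AT5G45000 (23.4) at ZT6, and AT5G45000 shares 33.8% of its exons with a gene on the other strand.

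Position and sequence limit some of these values. Within 100000 bases of each other 97 of the 150 genes form 21 runs of 3 or more, and 33 stand alone. Of the 150, 23 have over 10% of their exonic 75-base windows elsewhere in the genome, 6 over 50%, and 100 have 0. Exons of another gene overlap those of 44, over more than 10% of their length in 14.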

How the data were processed

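RNA-seq values of 150 NLR genes were taken from 1 table per time of day. After cutadapt, reads were mapped by the authors to the TAIR10 genome (TopHat2 version 2.0.14, run on Bowtie2 version 2.2.5) and counted over Araport11 exons. The authors added 5 reads to every gene, scaled with edgeR and quantile-normalized with voom, and deposited log2 CPM per library. Adding 5 reads compresses fold changes of low genes, most in the shallow ZT1 libraries, and whether counting used strand is not given in the sources used here. Columns holding the authors' own fold changes and p-values were not used.

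The log2 values were fitted with limma (3.58.1, R 4.3.3) with a trend, over the 6 groups of a time and without a block, for genes over the table minimum in 3 or more (ZT1) or 2 or more (ZT6) libraries. Differences between the times used Satterthwaite degrees of freedom and, like interactions, no fold threshold. Overlaps of calls between comparisons are shares of the NLR calls, without the overlap over all genes. For an alternative scale, whole reads were worked out from the steps between values. Except for WT heat at ZT1, counts on this scale are given without the share of all genes called on it. The ZT6 columns carry replicate numbers that differ from the labels, so they were matched to groups and are named by the tables' numbers. Fits were tested on simulated data. Tables were handled in Python 3.11.15 with pandas 2.3.3.

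Named genes are, per WT temperature comparison, the 8 largest called rises and falls whose groups do not overlap, the 4 largest called genes of every other comparison, genes of known role, and up to 4 called genes of each pathway list. The members and lists were chosen with earlier results of these data known. Alternatives were no filter, no trend, only the groups compared, recovered reads, a replicate block, leaving out each library and leaving out 4 ZT6 libraries together, the last chosen after seeing the data.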

Additional observations from a re-analysis of the deposited data

Results flagged for a closer look

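Within groups of 4 libraries, 24 of 295 sets of values of the named genes had 1 library far from the other 3. For values without ties chance gives about 1 in 20. In *cca1lhy* at 37 °C the far values (log2 CPM) were CHS1 1.81, AT1G63880 2.67, AT2G17050 1.81, RPP1 6.12, AT4G08450 1.94, AT4G09420 1.73 and AT5G38340 1.94. In *cca1lhy* at 10 °C they were WRR4A 5.68, AT1G66090 2.37 and NRG1.2 3.27, and in *cca1lhy* at 22 °C AT1G63730 1.96, AT1G66090 1.23, AT4G36140 5.00, LAZ5 4.81 and RPS6 3.16. In WT at 37 °C and ZT1 they were CHS1 1.81, AT3G04210 1.91, AT3G14460 1.91, AT4G08450 1.82, AT4G09420 2.17, RPP4 2.98, SNC1 4.40 and AT5G38340 1.82, and in WT at 22 °C AT4G09420 2.87. A value of 1.23 is the lowest of the ZT1 table, at 0 reads. In many of these sets, such as CHS1, AT4G08450 and AT5G38340 at 37 °C, the other 3 libraries were tied at 1.23. Any value above it is then flagged, so the rate of 1 in 20 does not apply and the count is no sign of aberrant libraries.

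The heat response differed between *cca1lhy* and WT for AT5G38850 (difference of LFCs 1.34). Between the times, the WT heat LFC was higher at ZT6 than at ZT1 for SOC3 (1.93), RPP7 (1.27), AT1G58848 (1.35), AT1G59124 (1.28), AT1G59218 (1.73), AT1G61300 (1.24), AT1G66090 (1.72), AT3G14460 (2.13), AT3G44400 (1.26), RPP1 (1.46), AT3G44630 (1.97), AT3G46730 (2.43), AT5G05400 (1.41), AT5G46260 (2.24), AT5G46490 (1.91) and AT5G58120 (1.56), and lower for AT2G17050 (−1.35), AT4G19050 (−1.35) and AT5G45000 (−1.12). The WT cold LFC was higher at ZT6 for AT1G61300 (1.31), RPP1 (1.82), AT3G44630 (2.35), AT5G43740 (1.34) and AT5G58120 (1.90), and lower for AT3G04210 (−2.01) and AT4G19050 (−1.30). Each difference was called at an adjusted p under 0.05. The interaction was tested in limma, and the differences between the times with Satterthwaite degrees of freedom from the limma fits of each time. The ZT1 libraries are shallower than the ZT6 libraries, whose part in these differences was not tested.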

How the results depend on the processing

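Of the 143 calls of NLR genes over all comparisons none changed sign under the alternatives run, 28 kept their call in every setting and 115 lost it in at least 1. On recovered reads the WT heat falls at ZT1 were 44 (12 on the deposited scale), the *cca1lhy* heat calls 27 (8), the WT cold falls at ZT1 1 (0) and the *prr7prr9* cold calls 8 (2), of which 6 were rises (0) and 2 falls (2), and the median WT heat LFC at ZT6 was −0.04 (0.04). With only the compared groups in the fit there were 6 *cca1lhy* over WT calls at 37 °C (14), 1 WT heat rise at ZT6 (18) and 2 falls (9), so that falls outnumbered rises, 9 *prr7prr9* heat calls (25), 0 WT cold rises at ZT6 (14), 0 *prr7prr9* cold calls (2), and 12 (19) and 2 (7) heat and cold differences between times, from fewer samples. Without a trend the *cca1lhy* by heat interaction had 2 calls (1). Without a filter the WT cold rises at ZT6 were 5 (14) and the heat differences between times 11 (19). Without the 4 ZT6 libraries with the most detected genes, an alternative chosen after seeing the data, WT heat rises and falls at ZT6, *prr7prr9* heat calls, WT cold rises and *prr7prr9* cold calls were 0 and the heat differences 7. Where not given, the cause was not tested.

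Same-numbered libraries correlated by a median of 0.0183 at ZT1 and 0.12 at ZT6, with ranges of −0.331 to 0.292 and −0.398 to 0.298. Differently numbered libraries gave medians of 0.00187 and −0.0297, with ranges of −0.385 to 0.339 and −0.298 to 0.398. The numbers gave no sign of pairing at ZT1. At ZT6, with 2 libraries per group, such correlations cannot show whether the numbers pair libraries. With the replicate block the *cca1lhy* by heat interaction had 3 calls, *prr7prr9* cold 5 and the cold differences between times 13.

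Leaving out 1 library gave 1 to 3 WT heat rises at ZT1 (3 without WT 37 °C replicate 1, 2 without WT 37 °C replicate 2 or WT 22 °C replicate 1), 1 to 4 WT cold rises at ZT1 (1 without WT 10 °C replicate 3), 2 to 8 *cca1lhy* cold calls (8 without *cca1lhy* 22 °C replicate 1, 5 without its replicate 2 or 3, 6 without *cca1lhy* 10 °C replicate 2), 1 to 7 *cca1lhy* over WT calls at 10 °C, 1 to 3 *cca1lhy* by heat calls (3 without WT 22 °C replicate 2, and 2 without any 1 of WT 37 °C replicates 2 and 4, WT 22 °C replicate 1, *cca1lhy* 37 °C replicate 2, 22 °C replicates 1 and 2 and 10 °C replicate 2), 10 to 19 WT heat rises and 3 to 9 falls at ZT6, 9 to 25 *prr7prr9* heat calls, 3 to 16 WT cold rises and 0 to 2 falls at ZT6 (1 without *prr7prr9* 37 °C replicate 2), 0 to 8 *prr7prr9* cold calls (0 without *prr7prr9* 10 °C replicate 2, 8 without either WT 10 °C replicate, and 1 without any 1 of *prr7prr9* 10 °C replicate 1, the *prr7prr9* 22 °C and the WT 37 °C libraries), 0 to 2 *prr7prr9* over WT calls at 37 °C, and 5 to 26 heat and 6 to 15 cold differences between times. WT heat falls at ZT1 were 8 to 18, *cca1lhy* heat calls 6 to 12 and *cca1lhy* over WT calls 10 to 19 at 37 °C. Depth limits the ZT1 values most, where the median NLR gene has 2 to 62.5 reads per library.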
